A study of Mus musculus with 15 samples.

Results

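The genes described are 44 that a kidney cell uses to copy its DNA, to divide, or to hold division back. They were taken by symbol from a fixed list, and all 44 were among the 23393 genes of each of the 3 deposited tables. No measured value entered that rule, but the list was chosen with earlier results of these data known. By role there were 4 genes of entry from the G1 phase into S phase, 14 of replication (10 of origin licensing and the fork, 4 of nucleotide supply), 23 of mitosis (8 of mitotic entry, 4 of the spindle checkpoint and anaphase, 11 of chromosomes, kinetochores and spindle) and 3 of cell cycle arrest.

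The kidneys came from C57BL/6 mice of the genotype ERRg fl/fl;Sim1-Cre, called knockout here, and from their Cre- littermates of the genotype ERRg fl/fl, which served as controls. All mice of both groups thus carry floxed alleles of Esrrg, the gene of the orphan nuclear receptor ERRγ, and no group has unfloxed alleles or Cre without them. Cre stands under the Sim1 promoter, and the labels do not say which kidney cells it reaches. Polyadenylated RNA of whole kidney was sequenced in 15 libraries, which the labels divide into 2 control and 3 knockout males of 3 weeks, 2 control and 2 knockout females of 3 weeks, and 3 control and 3 knockout males of 3 months. For 3 knockout libraries of 3 months the source name gives female where the title and the sex tag give male, and they are called males here after the title. The study's design asks which kidney genes depend on ERRγ, and the comparison of the genotypes is made here for the division genes.

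The authors' deposited tables give for each gene 1 mean normalized count for both genotypes together, the log2 fold change and its SE (written below as value ± SE), an adjusted p and a status. A gene is written here as higher, lower or called where the authors' adjusted p, from DESeq2, was under 0.05, and a gene with the status Low or Outlier has no adjusted p. The headers do not name the direction of the ratio. It was read as knockout over control, because the defining kidney transport markers were mostly negative (8 of 10 tested called lower at 3 weeks in males). Esrrg itself stood in the authors' deposited tables at 0.82 ± 0.20 in 3-week males and 1.04 ± 0.17 in 3-week females (adjusted p = 0.000613 and 1.7e-08), and at -0.87 ± 0.57 with the status Outlier in 3-month males. The positive values at 3 weeks go against that reading on their face. Which exon is floxed is unknown here, reads outside it may count, and this gene therefore does not settle the direction. If the ratio ran the other way, every higher and lower below would swap.

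Whole-read steps in the lowest means showed 2 knockout-side and 2 control-side libraries in each 3-week table, and 2 knockout-side and 3 control-side libraries at 3 months, fewer than the labels list in both male comparisons. Their implied depths, from size factor and table total, were 39.4 to 57.0 M counts (M stands for mega) in 3-week males, 21.4 to 46.2 M counts in 3-week females and 15.2 to 25.9 M counts in 3-month males. Which labelled mouse each one is was not recovered.

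Cell division runs in a set order. In G1 phase, E cyclins and E2F factors open the way to S phase. Cdc6 and Cdt1 load the ring of Mcm2 to Mcm7 onto origins, where it later unwinds DNA for the polymerases and their clamp Pcna, while ribonucleotide reductase and thymidylate synthase supply the building blocks. Cyclin B with Cdk1, and the Polo and Aurora kinases, then drive mitosis, in which kinesins and microtubule binders such as Prc1 and Tpx2 build the spindle, and Bub1, Bub1b and Mad2l1 hold anaphase until the chromosomes are attached. The inhibitors p21 (Cdkn1a) and p16Ink4a (Cdkn2a) block this cycle. The tubules of a young kidney still grow by division, and an adult kidney has few dividing cells until it is injured. In whole kidney, more dividing cells and more transcript per dividing cell cannot be told apart.

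Promoter sequences are shown first because the promoters of the replication and mitotic members carry different short motifs. RefSeq promoters on GRCm38.p6 (250 bases before to 50 after each start) were at hand for 36 of the 44 members, with 40 starts. The motifs searched, on both strands, were the CCAAT box (CCAAT), the cell cycle genes homology region or CHR (TTTGAA), and the E2F site (TTCCCGC or TTGGCGC). The box read on the other strand can share letters with the second E2F form, and both are then counted. Capitals below mark matches, and each run is written 5′ to 3′ on the gene's strand. The mitotic set is shown by Prc1, which had the largest fold change among the called mitotic members at 3 months, by the cyclin Ccnb2 and by the anaphase activator Cdc20.

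Prc1, chr7:80294201-80294500, plus strand: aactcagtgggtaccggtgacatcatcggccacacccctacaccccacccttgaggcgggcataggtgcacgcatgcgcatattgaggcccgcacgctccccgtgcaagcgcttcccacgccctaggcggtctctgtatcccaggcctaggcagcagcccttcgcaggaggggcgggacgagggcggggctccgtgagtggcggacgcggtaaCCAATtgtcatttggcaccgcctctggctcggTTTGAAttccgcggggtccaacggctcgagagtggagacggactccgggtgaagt

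Ccnb2, chr9:70421505-70421804, minus strand: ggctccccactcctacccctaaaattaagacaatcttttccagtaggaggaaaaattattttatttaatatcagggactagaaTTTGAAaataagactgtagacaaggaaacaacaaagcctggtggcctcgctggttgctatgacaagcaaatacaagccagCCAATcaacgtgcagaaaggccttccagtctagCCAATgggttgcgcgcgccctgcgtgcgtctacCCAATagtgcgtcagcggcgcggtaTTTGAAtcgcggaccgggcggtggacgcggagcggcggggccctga

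Cdc20, chr4:118437294-118437593, minus strand: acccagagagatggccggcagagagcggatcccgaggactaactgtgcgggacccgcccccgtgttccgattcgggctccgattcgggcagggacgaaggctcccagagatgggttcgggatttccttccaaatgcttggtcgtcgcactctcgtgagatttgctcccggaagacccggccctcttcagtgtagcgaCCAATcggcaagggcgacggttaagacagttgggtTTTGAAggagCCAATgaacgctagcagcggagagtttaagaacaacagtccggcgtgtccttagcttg

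The replication set is shown by the helicase subunits Mcm3 and Mcm6, which rose at 3 months, and by Mcm10, which fell.

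Mcm3, chr1:20820263-20820562, minus strand: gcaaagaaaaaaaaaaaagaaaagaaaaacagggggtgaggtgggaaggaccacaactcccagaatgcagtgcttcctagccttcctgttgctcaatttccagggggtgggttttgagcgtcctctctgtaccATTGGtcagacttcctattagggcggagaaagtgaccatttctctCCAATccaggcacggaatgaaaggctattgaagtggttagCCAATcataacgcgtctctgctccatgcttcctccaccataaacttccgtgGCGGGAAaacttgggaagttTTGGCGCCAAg

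Mcm6, chr1:128359656-128359955, minus strand: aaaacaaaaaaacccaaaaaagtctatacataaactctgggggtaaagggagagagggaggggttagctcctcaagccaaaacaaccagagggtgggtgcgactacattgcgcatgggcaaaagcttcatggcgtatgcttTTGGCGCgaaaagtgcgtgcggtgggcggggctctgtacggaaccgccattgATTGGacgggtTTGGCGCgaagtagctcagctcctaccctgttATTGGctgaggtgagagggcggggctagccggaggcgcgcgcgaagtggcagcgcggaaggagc

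Mcm10, chr2:5012742-5013041, minus strand: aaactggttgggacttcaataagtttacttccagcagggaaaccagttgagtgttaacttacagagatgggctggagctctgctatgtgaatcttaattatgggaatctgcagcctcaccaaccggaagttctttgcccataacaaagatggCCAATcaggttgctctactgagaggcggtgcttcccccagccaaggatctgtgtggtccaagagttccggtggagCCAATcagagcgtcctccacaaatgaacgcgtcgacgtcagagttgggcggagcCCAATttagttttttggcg

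The arrest gene Cdkn2a has a separate start for each of its proteins, p16Ink4a and p19Arf, and both are shown because the counts per gene do not separate the products.

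Cdkn2a, chr4:89282143-89282442, minus strand: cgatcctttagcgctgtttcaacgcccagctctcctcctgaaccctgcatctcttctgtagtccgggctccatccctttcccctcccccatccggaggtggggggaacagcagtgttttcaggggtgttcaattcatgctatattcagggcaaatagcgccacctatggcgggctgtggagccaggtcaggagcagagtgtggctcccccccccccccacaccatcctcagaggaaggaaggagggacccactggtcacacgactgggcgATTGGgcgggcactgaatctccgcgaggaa

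Cdkn2a, chr4:89294570-89294869, minus strand: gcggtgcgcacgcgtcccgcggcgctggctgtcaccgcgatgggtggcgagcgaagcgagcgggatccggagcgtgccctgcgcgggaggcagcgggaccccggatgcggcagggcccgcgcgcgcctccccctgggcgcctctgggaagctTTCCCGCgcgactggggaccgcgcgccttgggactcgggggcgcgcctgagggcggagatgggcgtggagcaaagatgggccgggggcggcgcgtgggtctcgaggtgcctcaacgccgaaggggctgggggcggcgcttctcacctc

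Of the 19 mitotic promoters, 13 (68.4%) held the CHR, and all 13 also held a CCAAT box. The 19 are of 18 genes, and Prc1 counts with 2 starts whose windows overlap and hold the same CHR and CCAAT box. Among all 32851 promoters of the table, 17.9% held the CHR and 6.95% held both. Only 1 of the 14 replication promoters (7.14%), that of Mcm2, held the CHR. The E2F site was in 8 of the 14 replication promoters (57.1%) and in 3 of the 19 mitotic ones (15.8%), against 6.81% of all promoters. A CCAAT box was in 84.2% of the mitotic and 71.4% of the replication promoters, against 37.4% of all. Mcm3 has 3 E2F matches and Mcm6 has 2, while Mcm10 has 3 CCAAT boxes and no E2F match in this window. Of the matches of Mcm3, 2 overlap in 1 stretch that reads as the site on both strands. The window of Mcm10 ends in all but the last letter of TTGGCGC, so a match across its edge would not be seen. Of the starts of Cdkn2a, the upstream one held 1 E2F match and the downstream one 1 CCAAT box. Such matches describe letters within the window and do not show that a factor binds there.

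Division genes were higher in knockout kidneys at both ages and in both sexes at 3 weeks. In the authors' deposited table of 3-week males 17 of the 42 tested members were called higher and none lower, where 17.3% of all tested genes were called, 8.81% higher and 8.52% lower. The 3-week female table called 9 of 24 tested members higher and none lower, against 18.7% of all genes called, 8.29% higher and 10.4% lower. At 3 months 25 of 35 tested members were called higher and 2 lower, in a comparison that called 57.5% of all genes, 29.8% higher and 27.8% lower, so the share of members called there is read against a high background. The median log2 fold change of the tested members was 0.58, 0.73 and 1.12 in 3-week males, 3-week females and 3-month males, and that of all tested genes was -0.01, 0.01 and 0.01. At 3 months all tested genes in the range of means of the tested mitotic members had a median of 0.72, with 48.2% called higher. Centred on genes of like abundance, 48.6% of the tested members were called there in either direction, against 54.1% of all genes. By direction, 15 of the 35 members were higher and 2 lower, against 3614 of 12828 genes higher and 3330 lower.

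Across the 3 authors' deposited tables, 38 of the 44 members had positive fold changes in all 3, and 32 were called higher in at least 1. The 5 called higher in all 3 were the helicase subunit Mcm4 and the mitotic genes Aurkb, Birc5, Prc1 and Tpx2. In females 4 of these calls rested on settings: centred on genes of like abundance, Aurkb, Birc5 and Tpx2 had an adjusted p of 0.0758, 0.0541 and 0.0738, and with no filter on genes Mcm4 and Tpx2 had 0.0518 and 0.0592. With no filter Cdk1, Top2a and Kif11, which the authors marked Outlier in females, passed there (adjusted p = 0.00836, 0.00384 and 0.0293), and the count of members called went from 9 to 10. In 3-week males the centring ended the calls of Cdt1, Bub1 and Birc5 (adjusted p = 0.0743, 0.108 and 0.0523) and added that of Mki67 (0.0479). A further 9 were called higher in 2 tables (Ccne1, Cdc6, Mcm3, Mcm5, Mcm6, Ccnb1, Ccnb2, Cdk1 and Bub1). Mcm10 and Tyms were the 2 called lower, both at 3 months. The 10 members called in no table were Ccnd1, Ccne2, E2f1, Mcm2, Rrm2, Foxm1, Mki67, Cenpf, Cdkn1a and Ccng1. With no filter on genes Mki67, Cenpf and Cdkn1a passed at 3 months (adjusted p = 0.00399, 0.0204 and 5.72e-08), as did Top2a and Ccna2 (0.000385 and 0.00914).

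**Figure D1:**
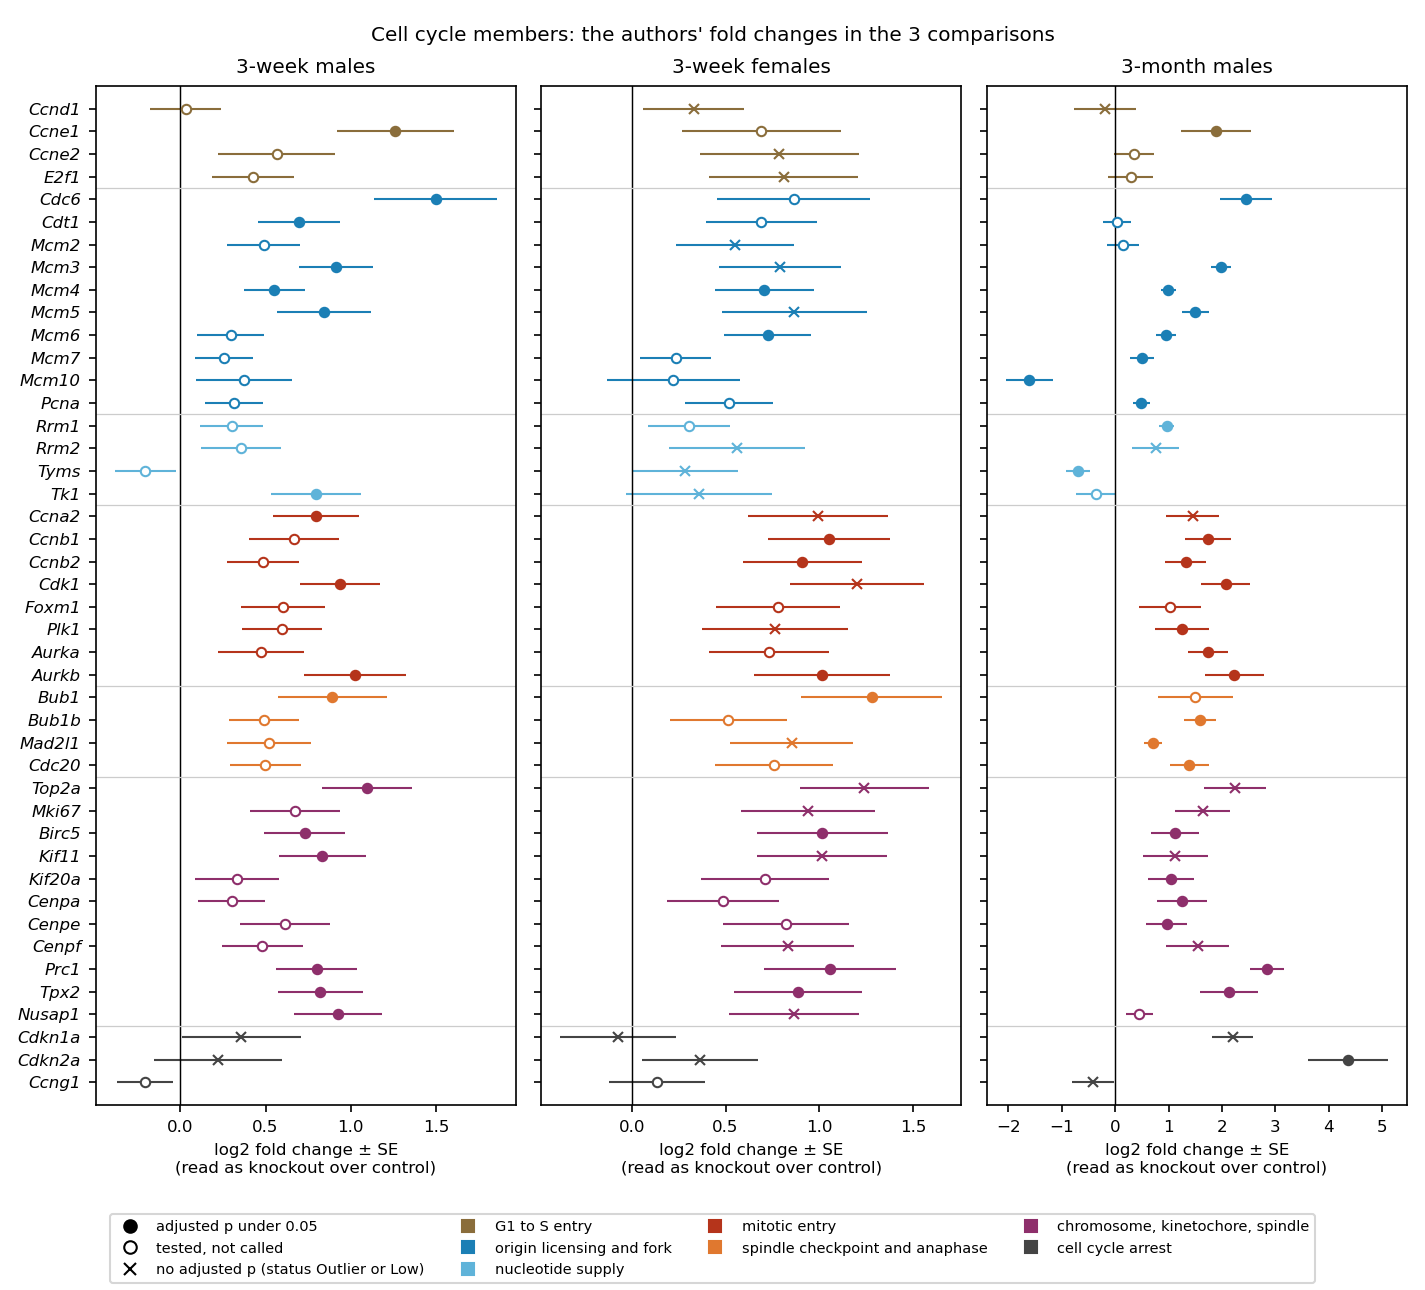
Log2 fold change of each of the 44 members with its standard error, in 3-week males, 3-week females and 3-month males, coloured by role; the x axes differ in range. Filled circles have an adjusted p under 0.05 (17, 9 and 25 to the right of 0, and 2 to the left at 3 months), open circles were tested and not called, and crosses have no adjusted p.

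Many members had no adjusted p from the authors. The status Outlier fell on 19 members in 3-week females, which is 44.2% of the members tested or so marked, against 5.62% of all genes. It fell on 9 members at 3 months (20.5%, against 10.6% of all genes) and on 1 in 3-week males (2.33%, against 4.01%). The sources used here do not state the rule behind this status, and the values by library that could be recovered are given below. The marked members had positive fold changes too: the proliferation marker Mki67 was at 0.94 ± 0.36 in females and 1.64 ± 0.51 at 3 months in the authors' deposited tables, and the DNA topoisomerase Top2a was at 1.24 ± 0.34 and 2.24 ± 0.58.

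Among the genes of S phase entry, cyclin E1 (Ccne1), the partner of Cdk2, was called higher in both male comparisons. Its normalized counts in 3-week males were 85.0 and 89.4 in the knockout-side libraries and 26.9 and 32.5 in the control-side ones. Both knockout values lay above both control values, and the authors' deposited table gave 1.26 ± 0.34 (adjusted p = 0.00282). In 3-week females Ccne1 was at 33.0 and 93.6 in knockout and 14.8 and 35.4 in control libraries. Those groups overlap, and the authors' deposited fold change was 0.69 ± 0.42 (adjusted p = 0.271). At 3 months the values were 32.7 and 12.6 in knockout and 4.1, 7.1 and 1.2 in control libraries, without overlap, and the authors' deposited table gave 1.89 ± 0.66 (adjusted p = 0.00933). Cyclin E2 (Ccne2) and the transcription factor E2f1 were positive throughout, from 0.29 to 0.81, and none of these was called in the authors' deposited tables. Cyclin D1 (Ccnd1), which links growth signals to Cdk4 and Cdk6, was at 0.03 ± 0.21 (adjusted p = 0.959) in 3-week males.

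The licensing factor Cdc6 had the largest fold change of any member in 3-week males. Its normalized counts there were 101.7 and 75.7 in knockout and 23.2 and 24.1 in control libraries, and the authors' deposited fold change was 1.50 ± 0.36 (adjusted p = 0.000485). Female libraries held 49.1 and 107.8 in knockouts and 21.2 and 39.2 in controls. The groups again did not overlap, but the authors' deposited value of 0.86 ± 0.41 did not pass the test (adjusted p = 0.127). At 3 months Cdc6 stood at 37.0 and 35.9 in knockout libraries and at 2.1, 5.9 and 8.7 in control libraries. Each knockout library was above every control library, and the authors' deposited table gave 2.45 ± 0.49 (adjusted p = 2.48e-06). Cdt1, the other loading factor, rose in 3-week males in the authors' deposited table (0.70 ± 0.24, adjusted p = 0.0279) and stood at 0.04 ± 0.26 at 3 months (adjusted p = 0.918).

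Of the helicase ring, Mcm3, Mcm4 and Mcm5 rose in 3-week males, Mcm4 and Mcm6 in 3-week females, and Mcm3 to Mcm7 at 3 months. Mcm3 had the largest of these changes, at 0.91 ± 0.22 in 3-week males and 1.98 ± 0.19 at 3 months (adjusted p = 0.000385 and 1.3e-23) in the authors' deposited tables. Mcm4, with means of 669, 581 and 265 normalized counts, was at 0.55 ± 0.18 (adjusted p = 0.0142), 0.71 ± 0.26 (adjusted p = 0.0424) and 1.00 ± 0.14 (adjusted p = 1.75e-11) in the same order of authors' deposited tables. Mcm2, of the same ring, was not called in either male comparison, at 0.49 ± 0.22 (adjusted p = 0.107) and 0.14 ± 0.30 (adjusted p = 0.695), and was marked Outlier in females. The ring's subunits therefore did not all pass, although 5 of the 6 did so at 3 months. Mcm7 overlaps Cops6 and Ap4m1 on the other strand in the annotation, and no source used here says whether the counting used strand, so its value is uncertain. The same holds for Ccne2 (beside Ints8), Ccna2 (Exosc9) and Kif20a (Cdc23).

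Mcm10, which joins the helicase to the polymerase as the fork starts, went the other way from the ring at 3 months. The authors' deposited table gave -1.61 ± 0.44 (adjusted p = 0.000752) at a mean of 93.0 normalized counts, which is 0.328 times the control level. At 3 weeks it was at 0.37 ± 0.28 in males and 0.22 ± 0.36 in females (adjusted p = 0.434 and 0.730) in the authors' deposited tables. The clamp Pcna rose at 3 months, by 0.49 ± 0.16 (adjusted p = 0.00359) in the authors' deposited table.

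The nucleotide supply genes were divided. Rrm1, the large subunit of ribonucleotide reductase, rose at 3 months in the authors' deposited table, at 0.96 ± 0.14 (adjusted p = 2.79e-11). Thymidylate synthase (Tyms), which makes the thymine nucleotide, fell there to -0.70 ± 0.22 (adjusted p = 0.00390) in the authors' deposited table. When libraries were scaled to total counts, Tyms was at -0.21 (adjusted p = 0.416) and no longer called, whereas Mcm10 still was. Thymidine kinase (Tk1) was called higher in 3-week males at 0.79 ± 0.27 (adjusted p = 0.0204) and stood at -0.36 ± 0.38 (adjusted p = 0.412) at 3 months in the authors' deposited tables. Tk1 overlaps Afmid on the other strand, so its counts carry the same doubt as those of Mcm7. Rrm2 was not called in any of the 3.

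All 23 mitotic members had positive fold changes in all 3 authors' deposited tables. In 3-week males 10 of 23 tested were called higher with a median of 0.67, in 3-week females 7 of 14 with a median of 0.85, and in 3-month males 15 of 18 with a median of 1.35. The replication members had medians of 0.43 (6 of 14 higher), 0.60 (2 of 8) and 0.50 (8 of 13 higher and 2 lower). Mitotic means at 3 months were low, between 14.8 and 123 normalized counts for those tested, and all tested genes in that range had a median of 0.72 with 48.2% called higher. Centred on genes of like abundance, 17 members stayed called at 3 months in place of 27. In either direction that is 48.6% of the tested members against 54.1% of all genes, where the authors' deposited values gave 77.1% against 57.5%. Of the 17 members 15 were higher and 2 lower, and of all 12828 genes 3614 were higher and 3330 lower.

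Of the kinases and cyclins of mitotic entry, Aurkb, the Aurora kinase that corrects faulty attachments, was called higher in all 3. The authors' deposited tables gave Aurkb 1.03 ± 0.30 (adjusted p = 0.00584), 1.01 ± 0.36 (adjusted p = 0.0325) and 2.23 ± 0.56 (adjusted p = 0.000191). At 3 months its normalized counts were 60.2 and 23.3 in knockout libraries and 7.2, 7.1 and 6.2 in control libraries. The control libraries were close together, and both knockout libraries were above them although they differed from each other. Aurka, the Aurora kinase of the spindle poles, was at 52.2 and 40.4 against 13.4, 15.3 and 9.9 at 3 months, where the authors' deposited fold change was 1.74 ± 0.37 (adjusted p = 1.13e-05). The Polo kinase Plk1 was at 58.0 and 26.9 against 15.5, 10.6 and 22.3, with the authors' deposited value at 1.25 ± 0.51 (adjusted p = 0.0257). For Plk1 the lower knockout library was close to the highest control library. The means of Aurka and Plk1 could be written as whole reads in 2 ways, and the way that matched the deposited fold change is given.

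Cyclin B1 (Ccnb1), the activator of Cdk1, was at 42.1 and 31.4 in knockout and 6.2, 11.8 and 12.4 in control libraries at 3 months. These did not overlap, and the authors' deposited table gave 1.73 ± 0.43 (adjusted p = 0.000181). It was also called in 3-week females, at 1.05 ± 0.32 (adjusted p = 0.00984), and in 3-week males it missed the threshold, at 0.67 ± 0.27 (adjusted p = 0.0626), in the authors' deposited tables. Cdk1 rose in both male comparisons, by 0.94 ± 0.24 (adjusted p = 0.000977) and 2.07 ± 0.46 (adjusted p = 2.45e-05) in the authors' deposited tables, and was marked Outlier in females at 1.20 ± 0.36. Foxm1, a transcription factor of mitotic genes, was positive and not called in any of the 3, between 0.60 and 1.02.

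Among the checkpoint and anaphase genes, Bub1 was called at 3 weeks in both sexes and the other members at 3 months. The authors' deposited tables put the checkpoint kinase Bub1 at 0.89 ± 0.32 in 3-week males and 1.28 ± 0.38 in 3-week females (adjusted p = 0.0343 and 0.00637). At 3 months its normalized counts were 46.4 and 8.1 in knockout and 5.2, 10.6 and 3.7 in control libraries. Here 1 knockout library stood far above the rest and the other lay within the control values, and the authors' deposited fold change of 1.50 ± 0.71 did not pass the test (adjusted p = 0.0580). Bub1b, the partner of Bub1 in the checkpoint, rose at 3 months in the authors' deposited table, at 1.59 ± 0.30 (adjusted p = 3.85e-07). Cdc20, which switches on the anaphase ligase, was at 1.38 ± 0.36 (adjusted p = 0.000430) and the checkpoint protein Mad2l1 at 0.71 ± 0.18 (adjusted p = 0.000200) in the same authors' deposited table. Cdc20 overlaps Elovl1 on the other strand, with the same doubt on strand.

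Among the genes of chromosomes and spindle, Prc1, which bundles the microtubules of the central spindle, was higher in all 3. The authors' deposited tables gave Prc1 0.80 ± 0.24 (adjusted p = 0.00731), 1.06 ± 0.35 (adjusted p = 0.0188) and 2.85 ± 0.32 (adjusted p = 9.07e-18), at means of 701, 451 and 64.2 normalized counts. At 3 months that is 7.19 times the control level, from a gene that overlaps Rccd1 on the other strand. Tpx2, which starts microtubules near chromosomes, was at 0.82 ± 0.25 (adjusted p = 0.00912), 0.89 ± 0.34 (adjusted p = 0.0486) and 2.13 ± 0.54 (adjusted p = 0.000266) in the authors' deposited tables. Birc5 (survivin), a subunit of the complex that carries Aurkb, was at 0.73 ± 0.24 (adjusted p = 0.0185), 1.02 ± 0.35 (adjusted p = 0.0252) and 1.12 ± 0.45 (adjusted p = 0.0230) in them. The kinesin Kif11, which pushes spindle poles apart, rose in 3-week males (0.83 ± 0.26, adjusted p = 0.00992), as did Top2a (1.10 ± 0.26, adjusted p = 0.000542), in the authors' deposited table. The kinesin Kif20a, the centromere histone Cenpa and the kinetochore motor Cenpe were called higher at 3 months, between 0.97 and 1.26, in the authors' deposited table. On centring on genes of like abundance these 3, Birc5, Cdc20, Mad2l1, Plk1, Ccnb1, Ccnb2 and Ccne1 were no longer called at 3 months, while Prc1, Tpx2, Aurka, Aurkb, Bub1b and Cdk1 were. Nusap1, a spindle protein that overlaps Oip5, rose in 3-week males (0.93 ± 0.26, adjusted p = 0.00389) and was at 0.45 ± 0.25 (adjusted p = 0.114) at 3 months in the authors' deposited tables.

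Of the arrest genes Cdkn2a was the only one with an authors' adjusted p at 3 months, and it was called higher. Cdkn2a, the gene of p16Ink4a and p19Arf, was at 21.0 and 67.3 normalized counts in the 2 knockout libraries and at 0 reads in all 3 control libraries. With up to 3 reads allowed over the control side by a count of 0, it was at least 38.4-fold higher, for counting error only. The libraries differ, and this bound is 18.2-fold from the first knockout library alone and 58.5-fold from the second. The authors' deposited table gave a smaller change than the bound from both, 4.36 ± 0.75 (adjusted p = 3.3e-08). Its mean could be written in 2 ways, and the other did not match the deposited fold change in sign or in size. The values by library and the bounds rest on that choice. In the 3-week tables its reads were few. The values were 5.0 and 3.2 in knockout and 1.9 and 2.4 in control libraries of males, and 2.9 and 3.2 against 0 and 0.9 in females, and the status was Low. Cdkn1a (p21), the inhibitor that p53 induces, was at 0.36 ± 0.35, -0.07 ± 0.31 and 2.20 ± 0.38 in the authors' deposited tables, marked Outlier in each and so without an adjusted p of the authors. At 3 months it passed with no filter on genes (adjusted p = 5.72e-08). Cyclin G1 (Ccng1), another p53 target, was at -0.21 ± 0.16 (adjusted p = 0.460) and 0.13 ± 0.26 (adjusted p = 0.780) at 3 weeks in the authors' deposited tables and at -0.42 ± 0.39 with the status Outlier at 3 months. The rise of the mitotic and replication genes thus stood beside a rise of Cdkn2a at 3 months, while at 3 weeks Ccng1 was the only arrest gene tested and was not called.

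**Figure D2:**
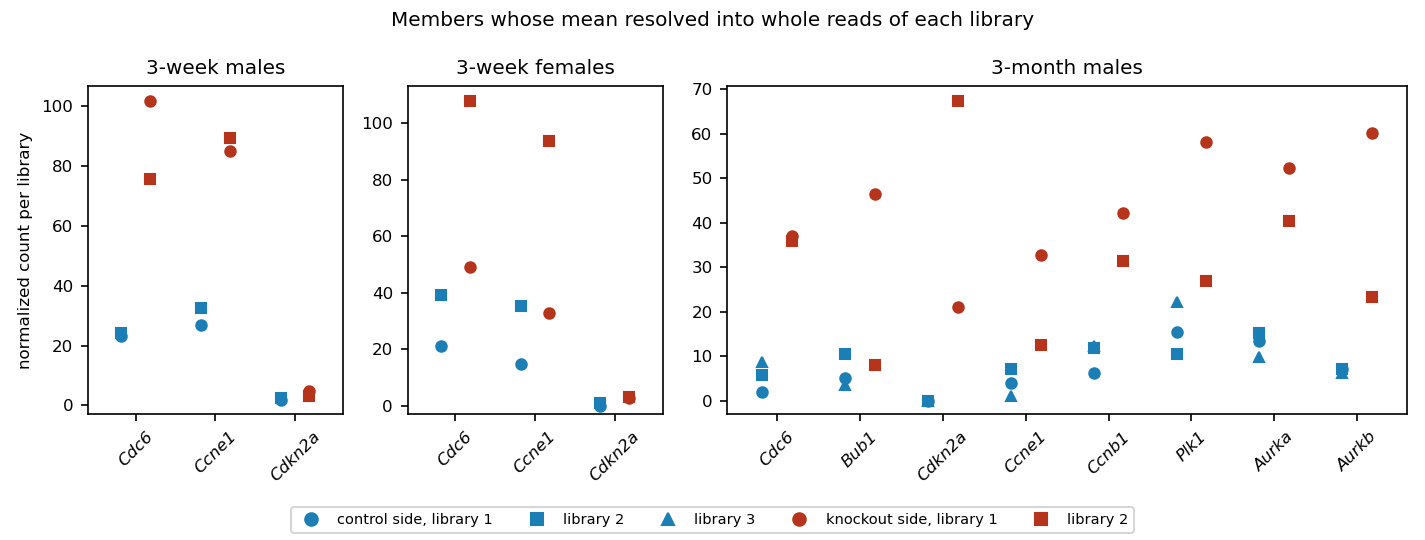
Normalized count in each library for the members whose mean resolved into whole reads, with control-side libraries in blue and knockout-side libraries in red. At 3 months Cdc6 was at 37.0 and 35.9 in knockout and at most 8.7 in control libraries, while Bub1 was high in 1 knockout library (46.4) and within the control values in the other (8.1).

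The knockout libraries of a table were not alike in these genes. To see this beyond the few resolved members, the other replication and mitotic genes with means in the range that resolves were added. In 3-week males 5 such genes resolved in 1 way, and in all 5 both knockout libraries were above both control libraries, which held for 44.7% of all genes resolved so. Their median value over the gene's mean was 1.45 and 1.53 in the knockout libraries and 0.41 and 0.43 in the control libraries, so the 2 knockout libraries were close.

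In 3-week females both knockout libraries were above both controls in 7 of 9 such genes, against 32.6% of all genes resolved. The second knockout library was the highest in all 9, at a median of 2.07 times the gene's mean, and it was highest in 31.9% of all resolved genes. The first stood at 0.85 and the controls at 0.49 and 0.56. The second is also the shallowest library of that comparison, at 21.4 M counts. This stands beside the 19 members marked Outlier in females, and the part of that library in those marks was not tested.

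At 3 months 11 of 16 such genes had both knockout libraries above all 3 controls, against 51.2% of all genes resolved. The first knockout library was highest in 15 of the 16, where it was highest in 29.8% of all resolved genes. Both sets were limited to means of 10 to 20, which 1 high library can bring about. Cep55, Sgol1 and Casc5 were at 39.2, 28.3 and 26.8 in the first knockout library and under 10 in every other. For such genes the order of libraries is partly set by the limit on means. Over the 16 genes the first knockout library stood at a median of 2.59 times the gene's mean, the second at 0.96 and the controls at 0.39, 0.47 and 0.27. For Cdkn2a the order was the reverse, with the second knockout library at 67.3 and the first at 21.0. A fit without either of these libraries could not be made, since the counts of most members did not resolve.

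**Figure D3:**
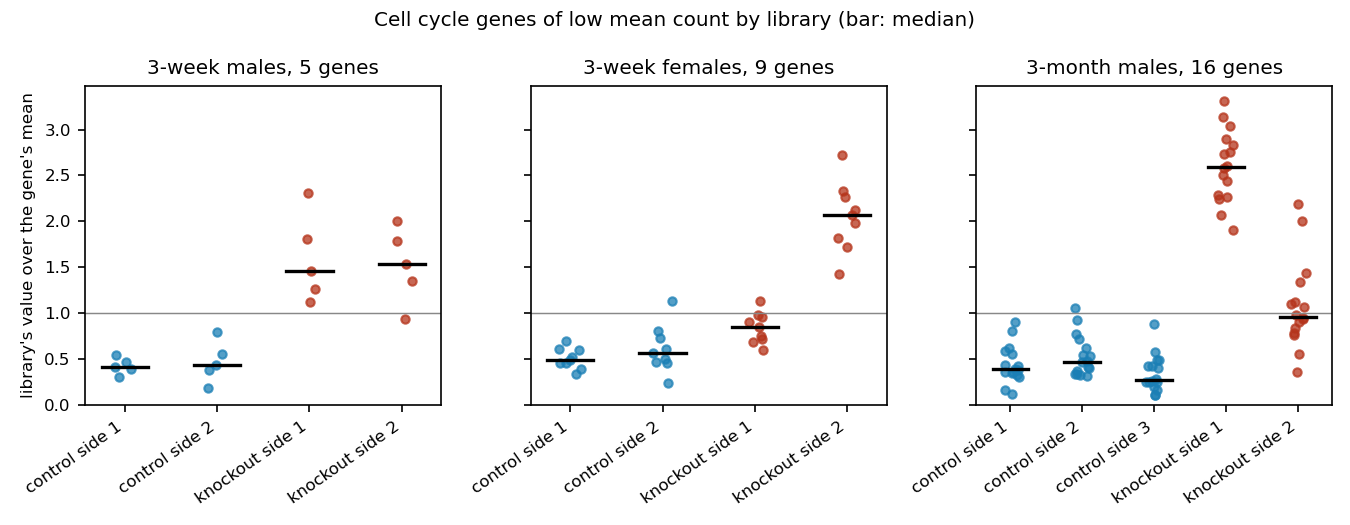
Each library's normalized count over the gene's mean, for the replication and mitotic genes (members and others) that resolved in 1 way, with the median as a bar. The second knockout library of the females (median 2.07) and the first of the 3-month males (median 2.59) stand above the other knockout library of their comparison (0.85 and 0.96).

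Mitotic transcripts made up less of the library at 3 months than at 3 weeks. Each table's mean was divided by the table's total for this, over both genotypes, and because the tables were normalized apart the ratios show the order of magnitude. In males the level at 3 weeks over that at 3 months had a median of 4.44 over the 23 mitotic members, from 2.09 for Mad2l1 to 7.24 for the kinetochore protein Cenpf. The 14 replication members had a median of 1.31, from 0.846 for Mcm10 to 2.87 for Rrm2. All genes tested at both ages had a median of 1.09. The ratio of every mitotic member was thus above the replication median, and Cdkn2a had the lowest ratio, 0.0697. Mki67 was at 48.0 CPM of the table's total at 3 weeks and 6.97 CPM at 3 months in males. Pcna, which also serves DNA repair, was at 45.6 and 39.1 CPM.

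**Figure D4:**
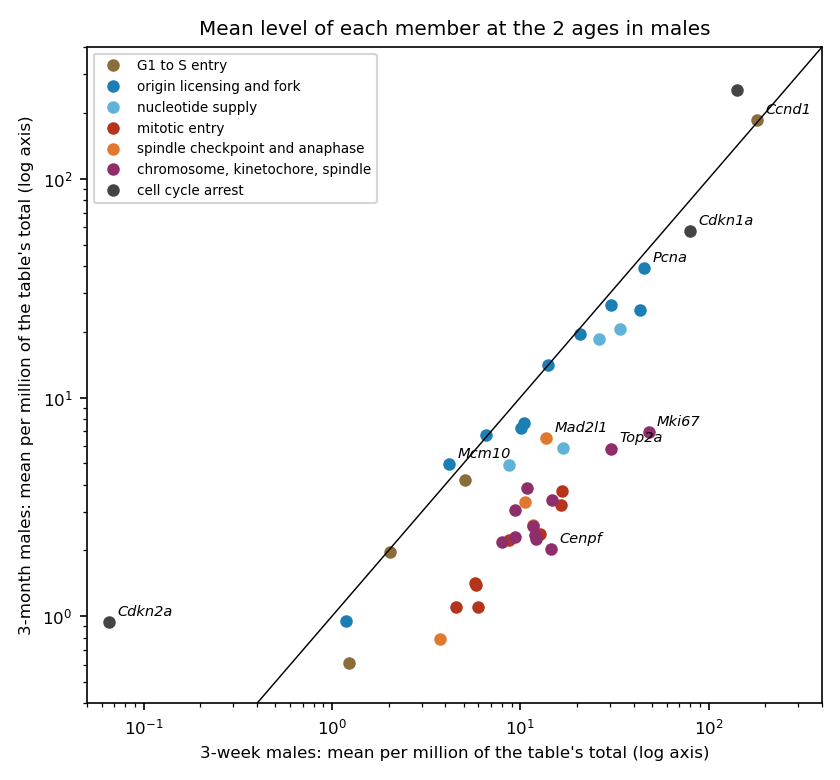
Mean of each member over both genotypes, as CPM of the table's total, in 3-week males (x, log axis) and 3-month males (y, log axis), with the line of equal level. The mitotic members lie below the line (median ratio 4.44), the replication members lie near it (median 1.31) and Cdkn2a lies far above it; values are not per length, so only each gene's own shift is comparable.

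The fold change itself was compared between ages in males with a 2-sided normal test on the difference of the authors' deposited values, adjusted by Benjamini-Hochberg over all 12355 genes tested at both ages. It passed for 7 of 34 members, against 27.7% of all genes (16.8% larger and 10.9% smaller at 3 months). Of these, 5 were larger at 3 months. Prc1 differed by 2.05 (95% interval 1.27 to 2.83, adjusted p = 6.07e-06), Mcm3 by 1.07 (0.50 to 1.63, adjusted p = 0.00184) and Bub1b by 1.09 (0.39 to 1.80, adjusted p = 0.0126). Aurka differed by 1.26 (adjusted p = 0.0227) and Rrm1 by 0.66 (adjusted p = 0.0198). The other 2 were smaller at 3 months, Mcm10 by -1.98 (interval -3.01 to -0.95, adjusted p = 0.00139) and Tk1 by -1.16 (adjusted p = 0.0442). Over all 34 members 26 were larger at 3 months, with a median difference of 0.64 against 0.04 for all genes. That comparison does not match genes by abundance. At 3 months all tested genes in the range of means of the tested mitotic members had a median log2 fold change of 0.72. In 3-week males the median was -0.002 in that comparison's own range. The part of abundance in the members' difference was not tested. The largest standard error was 0.44 in the 3-week male table and 1.10 at 3 months. For genes of low mean the deposited fold changes were smaller in size than the log2 ratios of the recovered side means, and more so at 3 weeks. Among all genes with means of 10 to 20 whose recovered log2 ratio was over 1 in size, the deposited value was a median 50.2% of it in 3-week males (236 genes) and 87.8% at 3 months (472 genes). That range does not reach the tested mitotic members of 3-week males, which had means of 177 to 2281. For Cdc6 the deposited and recovered values were 1.50 and 1.88 in 3-week males and 2.45 and 2.61 at 3 months, and for Ccne1 they were 1.26 and 1.54, and 1.89 and 2.31. The part of this in the differences between ages was not tested.

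**Figure D5:**
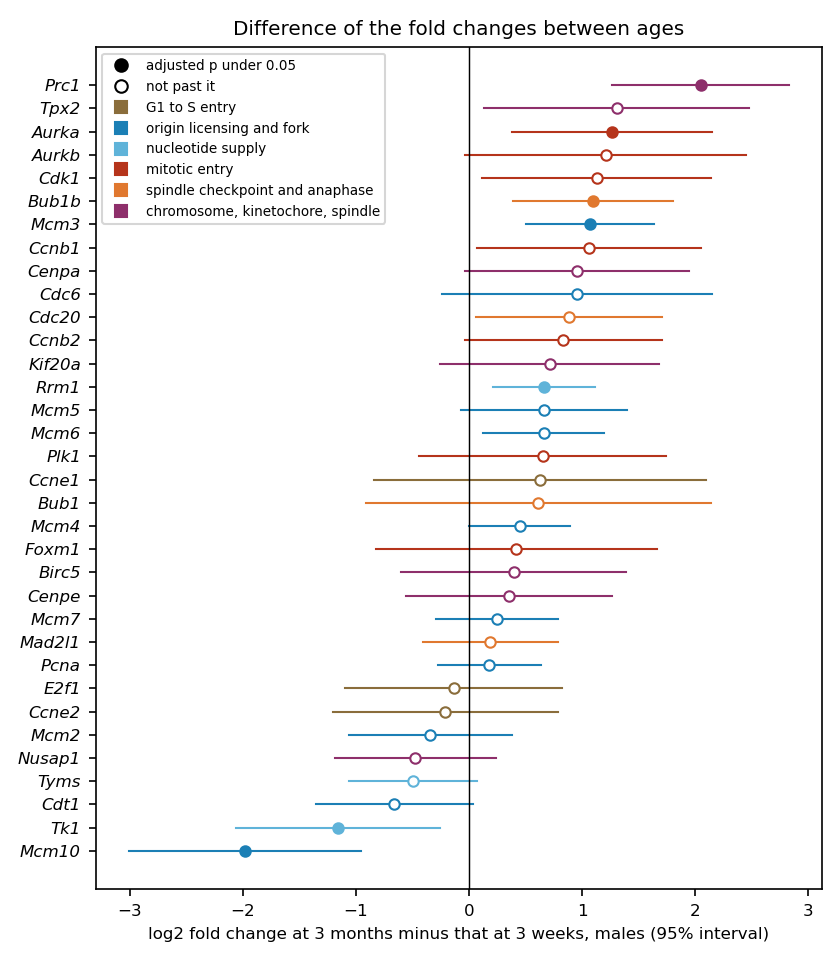
Log2 fold change at 3 months minus that at 3 weeks in males, with its 95% interval, for the 34 members tested at both ages. Filled circles (5 to the right of 0 and 2 to the left) have an adjusted p under 0.05 over all genes tested.

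Between the sexes at 3 weeks no difference of fold changes passed that test, for 0 of 24 members and 0.0% of 13737 genes. At an unadjusted p under 0.05 there were 0 members and 237 genes. The widest of the members' estimates was that of Cdc6, larger in males by 0.63 (95% interval -0.43 to 1.70). Prc1 differed by -0.26 (interval -1.09 to 0.57) and Mcm6 by -0.43 (interval -1.03 to 0.17), and these intervals hold differences in either direction.

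The other genes of these pathways, listed apart from the members, are set against the 8.81%, 8.29% and 29.8% of all genes called higher in 3-week males, 3-week females and 3-month males. Of replication genes outside the members 11 of 48 tested were higher in 3-week males, 8 of 49 in 3-week females and 20 of 46 at 3 months (22.9%, 16.3% and 43.5%), with 0, 0 and 6 lower. The largest called change of these in 3-week males was that of Uhrf1, which copies DNA methylation at the fork, at 1.76 ± 0.29 (adjusted p = 5.52e-08) in the authors' deposited table. At 3 months the polymerase subunit Pold1 was at 1.19 ± 0.15 (adjusted p = 1.14e-14) in the authors' deposited table. Tyms and Mcm10 were thus lower in the same libraries in which Mcm3 to Mcm7 and Rrm1 were higher.

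Mitotic genes outside the members were higher in 26 of 65 tested in 3-week males, 16 of 54 in 3-week females and 33 of 52 at 3 months (40.0%, 29.6% and 63.5%), with 1, 1 and 3 lower. Their medians of 0.71, 0.74 and 1.33 lay close to the 0.67, 0.85 and 1.35 of the mitotic members. Cdc25b, the phosphatase that activates Cdk1, was called in all 3 of the authors' deposited tables, at 0.87 ± 0.22, 0.73 ± 0.17 and 1.77 ± 0.14 (adjusted p = 0.00132, 0.000262 and 1.2e-32).

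Inhibitors and p53 targets outside the members were higher in 6 of 29 tested in 3-week males, 4 of 34 in 3-week females and 18 of 31 at 3 months (20.7%, 11.8% and 58.1%), with 0, 1 and 4 lower. Gtse1 and Ckap2 are in this list and also in that of the mitotic genes, so the counts are not separate. Gtse1 was called higher at 3 months, at 2.61 ± 0.33 (adjusted p = 2.13e-14) in the authors' deposited table. At 3 months Cdkn2b, the inhibitor p15Ink4b and the neighbour of Cdkn2a, was at 4.25 ± 0.46 (adjusted p = 7.51e-19) in the authors' deposited table. Phlda3, a p53 target that restrains Akt, was at 3.28 ± 0.21 (adjusted p = 4.95e-54) and the p53 inhibitor Mdm4 at -1.18 ± 0.09 (adjusted p = 1.96e-36) in it. At 3 weeks Cdkn2b was at 0.52 ± 0.30 in males (adjusted p = 0.260) and Phlda3 at 0.32 ± 0.19 in females (adjusted p = 0.262), and the other 2 values had the status Outlier, in the authors' deposited tables.

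Markers of other cells changed in both directions. Of all tested genes 8.81%, 8.29% and 29.8% were called higher in 3-week males, 3-week females and 3-month males. Those called lower were 8.52%, 10.4% and 27.8%. Immune cell markers were higher in 11 of 22 tested in 3-week males, 11 of 21 in 3-week females and 18 of 19 at 3 months, with none lower and medians of 0.92, 0.78 and 2.32 in the authors' deposited tables. Markers of injured tubules were higher in 8 of 9, 7 of 8 and 9 of 9, with medians of 1.42, 1.47 and 3.57. Fibroblast markers were higher in 1 of 2, 5 of 8 and 6 of 6, with 1 lower in females. Endothelial markers were lower in 4 of 8, 8 of 8 and 2 of 5, with 1 higher at 3 months. The defining kidney epithelium markers were present in every table and lower in 8 of 10, 4 of 9 and 2 of 4, with 1 higher at 3 months. Summed over each list, the means of both genotypes together were 299, 274 and 623 CPM of the table's total for the immune markers and 5018, 4501 and 4839 for those of injured tubules, and the tables do not give these sums per genotype. Their part in the higher division genes was not tested.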

How the data were processed

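The authors' deposited files are 3 tables of comparisons and hold no value per library. Per the file headers they give a mean of normalized counts (a signal over the libraries), a log2 fold change and its SE, and p-values before and after adjustment. The submitters' processing notes name mm10, STAR, HOMER and DESeq2, without versions. RNA was polyadenylated and libraries were stranded, per the labels' protocols.

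The 27 symbols turned into dates were left out of 23420 rows. Calls are the authors' own at an adjusted p under 0.05, and the rule for members was their symbol. A list's genes were named where they had the smallest p, up to 4 per list and table. Some genes that this rule took are left out. The members and lists were chosen with earlier results of these data known. The planned count models could not be fitted, so fold changes were compared with a normal test. The p-values measure the spread between libraries, which may be technical.

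Means are sums of whole reads over size factors, so reads per library were solved for low means: all means under 2 came out whole (0% of random values), and of genes with means from 10 to 60 (to 20 at 3 months) 88.5%, 99.9% and 95.4% had 1 solution. All such solutions were correct on simulated means. Those means were built from the same steps used to solve them, so this outcome was fixed and tests neither the steps nor the sides. Sides were told apart by the sign of the fold change of genes with reads in 1 library. Analyses used Python 3.11.15, pandas 2.3.3, numpy 2.4.6 and scipy 1.17.1.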

Additional observations from a re-analysis of the deposited data

Results flagged for a closer look

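For 7 of the 34 members tested at both ages in males, the authors' deposited log2 fold changes differed between 3 months and 3 weeks by the 2-sided normal test of the difference, with Benjamini-Hochberg adjustment over 12355 genes, of which 27.7% passed. The difference was larger at 3 months for Mcm3 (1.07), Rrm1 (0.66), Aurka (1.26), Bub1b (1.09) and Prc1 (2.05). It was smaller for Mcm10 (-1.98) and Tk1 (-1.16).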

How the results depend on the processing

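With the count of members called as the measure (17, 9 and 27 in 3-week males, 3-week females and 3-month males), a threshold of 0.01 gave 10 in 3-week males and 2 in 3-week females, and one of 0.1 gave 14 in 3-week females. Scaling to total counts raised the count to 30 in 3-week males and 16 in 3-week females, since it shifts every fold change by 0.18, 0.15 and 0.49; the share of all calls that are higher then went from 50.8% to 75.2%, from 44.2% to 74.0% and from 51.7% to 84.0%. Centring on genes of like abundance gave 17 at 3 months, in either direction 48.6% of tested members against 54.1% of all genes. Of these 17 members 15 were higher and 2 lower, against 3614 of 12828 genes higher and 3330 lower. No other setting moved a count of members, of differences or of promoters with a motif by over 1.5 times, and no member reversed a called direction under the settings tried. Leaving out a library, and a count model, could not be run, because the tables hold no value per library. No paired analysis was possible because the libraries are numbered without repeats across groups. At 3 months low means limit the mitotic genes.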

Other observations

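Genes that control the step from G1 to S phase outside the members were called higher in 3 of 32 tested in 3-week males, 7 of 32 in 3-week females and 8 of 29 at 3 months, with 0, 1 and 5 lower. These are 9.38%, 21.9% and 27.6%, against 8.81%, 8.29% and 29.8% of all genes, so that both male shares are near those of all genes. Myc, the growth factor response gene, was called in all 3 of the authors' deposited tables, at 1.39 ± 0.23, 0.95 ± 0.19 and 1.69 ± 0.15 (adjusted p = 1.26e-07, 1.03e-05 and 8.52e-28). Cyclin D2 (Ccnd2), which like cyclin D1 partners Cdk4 and Cdk6, was at 0.82 ± 0.16 in 3-week males and 2.73 ± 0.22 at 3 months (adjusted p = 6.68e-06 and 3.84e-33) in the authors' deposited tables. Rbl2, the pocket protein p130 of resting cells, was at -0.996 ± 0.123 (adjusted p = 5.19e-15) at 3 months in the authors' deposited table.

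Histone genes and replication-linked chaperones were higher in 4 of 18 tested, 5 of 17 and 10 of 17 in the same order (22.2%, 29.4% and 58.8%), with 1, 1 and 2 lower. The tubulin Tubb5, which that list holds, was at 0.82 ± 0.17, 0.64 ± 0.11 and 1.83 ± 0.12 (adjusted p = 6.31e-05, 5.28e-07 and 6.39e-53), and the histone gene Hist1h2bc was at -0.83 ± 0.19 in 3-week males and -1.07 ± 0.30 at 3 months (adjusted p = 0.000234 and 0.000911) in the authors' deposited tables.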
